A study of Mus musculus with 24 samples.

Results

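The expression of 9 genes of the mTOR pathway was followed through 3 stages of B cell development, with and without Vhl. The genes were Ddit4, the sestrins Sesn1, Sesn2 and Sesn3, Deptor, Tsc1 and Tsc2, which restrain mTOR signalling, together with Mtor, the kinase itself, and Rptor, its scaffold. They were taken by symbol from a table of 24421 genes, all 9 symbols were found, and all 9 passed the filter on low counts that left 12850 genes. The rule used their names and no measured value, but the genes were chosen with earlier results of these data known.

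RNA was sequenced from B cells sorted from mouse bone marrow, in 24 libraries from 8 mice. All 8 mice carried 1 copy of MB1 Cre (MB1 Cre +/WT), a recombinase expressed from the Mb1 (Cd79a) gene in B lineage cells. In 4 mice both Vhl alleles were floxed (VHL flox/flox), and in the other 4 mice 1 allele was floxed and the other wild type (VHL flox/WT), so the comparison is of cells able to lose both copies against cells able to lose 1. Each mouse gave 1 library of a pooled pro-B and pre-B sort (labelled proBpreB), 1 of immature and 1 of mature B cells, which made 6 groups of 4. The sources used here give neither ages nor the surface markers of the sorts.

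mTOR is a protein kinase that promotes protein synthesis and growth when nutrients, growth factors and energy are at hand. In mTORC1 it is held by Raptor, the product of Rptor, on the lysosome, where the small GTPase Rheb switches it on. The complex of Tsc1 and Tsc2 turns Rheb off. Ddit4, also called REDD1, is a stress-induced protein that acts through this complex and is a known target of hypoxia-inducible factors (HIF), of glucocorticoids, of ATF4 and of p53. Sestrins bind the GATOR2 complex and so link amino acid levels to mTORC1, and Deptor binds the kinase directly. Vhl is the substrate-binding part of the ubiquitin ligase that marks HIF alpha subunits for degradation when oxygen is present.

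HIF binds DNA at core letters of which ACGTG is 1 form. The 250 bases before each annotated start were searched for ACGTG on either strand in the RefSeq promoter table (GRCm38.p6). The form GCGTG was not searched, so a promoter without a match here may still hold a core. The table held 8 of the 9 genes. ACGTG was found before the starts of 2 of these 8, Ddit4 and Rptor, and these windows are shown because Ddit4 is the member that rose with Vhl loss and Rptor is one that passed no genotype test. The capitals mark the motif and 13 bases are given on either side, 5′ to 3′ on the strand of the gene.
Ddit4: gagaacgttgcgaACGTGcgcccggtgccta
Rptor: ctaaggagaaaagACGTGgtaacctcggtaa
The Ddit4 window lies at chr10:59951940-59951970 on the minus strand, with the motif at bases -187 to -183 from the RefSeq start. The Rptor window lies at chr11:119602858-119602888 on the plus strand, with the motif at bases -34 to -30. Of all 32817 promoters of the same length in the table, 16.6% held ACGTG. The E-box CACGTG, which contains the same letters, was in 6.02% of all promoters, the forkhead motif TGTTTAC in 3.16% and the C/EBP-ATF motif TGATGCAA in 0.792%, and none of these 3 was found before the starts of the 8 genes. A match describes letters in a window and not a bound site.

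Libraries held 7850186 to 11863949 counts. Vhl itself was lower in flox/flox libraries in each population, at 10.2 ± 3.37 against 25.3 ± 2.02 CPM in proBpreB cells, 5.58 ± 2.31 against 35.5 ± 8.88 in immature cells and 7.60 ± 1.90 against 29.1 ± 2.81 in mature cells (CPM, the TMM-scaled count relative to library size, mean ± SD, n = 4 mice, as throughout). The proBpreB libraries led in pro-B and pre-B markers, whose 9 genes summed to between 2947 and 4161 CPM in flox/WT mice against 171 to 274 CPM in mature cells. Genes listed as markers of other cells were detected in each population, though some, such as Ctss of the neutrophil and monocyte list, are expressed in B cells too. The 11 genes of that list summed to a median of 5207, 9523 and 14170 CPM in flox/WT proBpreB, immature and mature libraries. In flox/flox libraries the medians were 4810, 13198 and 19878 CPM. The part of each gene in these sums is not given. In bulk samples fewer cells of a type and less RNA per cell cannot be told apart, and the part of any such change in the results below was not tested. All p-values below are adjusted over the 12850 genes (edgeR quasi-likelihood test, Benjamini-Hochberg, threshold 0.05), and mice of a genotype are the replicates.

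Between the genotypes, 1 of the 9 genes was higher and 1 lower in flox/flox cells of each population. The gene that rose was Ddit4 each time. The gene that fell was a different one each time, Mtor in proBpreB cells, Tsc2 in immature cells and Sesn1 in mature cells. Of all genes tested, 3.38% were higher and 2.75% lower in proBpreB, 10.2% and 10.5% in immature, and 9.69% and 6.62% in mature cells (6.13%, 20.7% and 16.3% in all), so 2 calls among 9 genes are close to the background in the later populations. Groups that did not overlap were seen for 2 members higher and 1 lower in proBpreB cells, beside 7.85% and 7.6% of all genes. In immature cells there were 2 and 0, beside 11.4% and 11.5%, and in mature cells 1 and 1, beside 9.01% and 7.26%. The median log2 change of the 9 genes was 0.06, 0.01 and -0.16 in the order of the populations, and that of all genes was -0.0024, 0.0034 and 0.0072. No member passed the test for a difference of the genotype effect between populations in the fit without the mouse as a block, where 10.9%, 7.74% and 3.06% of all genes did (immature minus proBpreB, mature minus immature, mature minus proBpreB).

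**Figure D1:**
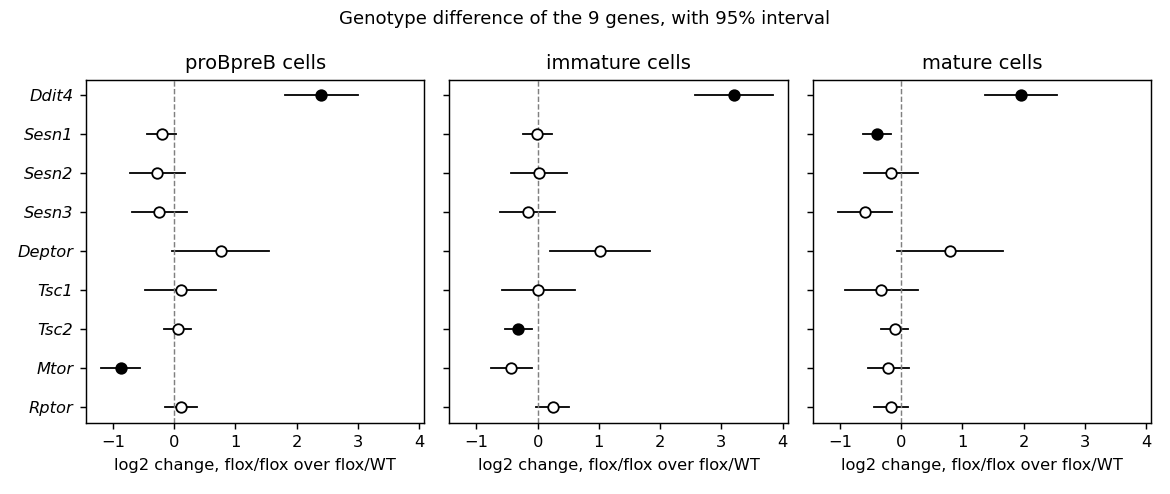
Log2 change of each of the 9 genes in flox/flox over flox/WT cells, 1 panel per population, with bars for the 95% interval of the edgeR estimate and filled points for an adjusted p under 0.05. Ddit4 lies at 2.40, 3.21 and 1.96, apart from the other 8 genes, whose points lie between -0.87 and 1.02.

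Ddit4 was higher without Vhl in every population, 5.29-fold in proBpreB cells, 9.42-fold in immature cells and 3.87-fold in mature cells as ratios of mean CPM. The gene lies at chr10:59949669-59951834 on the minus strand (GRCm38, GENCODE) and overlaps no other annotated gene. In proBpreB cells the 4 flox/WT libraries held 8.10, 10.1, 18.0 and 12.0 CPM and the 4 flox/flox libraries 53.2, 71.0, 65.8 and 64.7 CPM, in the order of mice 1 to 4 of each genotype. Immature cells held 5.18, 7.62, 14.5 and 6.57 CPM against 76.9, 93.8, 71.3 and 76.8 CPM. Mature cells held 17.6, 18.6, 40.1 and 16.0 CPM against 61.2, 103.0, 99.2 and 93.4 CPM. Every flox/flox library was above every flox/WT library of its population, and the lowest flox/flox value of all populations, 53.2 CPM, was above the highest flox/WT value of all, 40.1 CPM.

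The log2 change of Ddit4 was 2.40 (SE 0.29, adjusted p = 2.33e-06) in proBpreB cells, 3.21 (SE 0.30, adjusted p = 2.16e-08) in immature cells and 1.96 (SE 0.28, adjusted p = 2.00e-05) in mature cells. The values rest on 41 to 322 reads in flox/WT libraries and on 556 to 957 in flox/flox libraries.

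**Figure D2:**
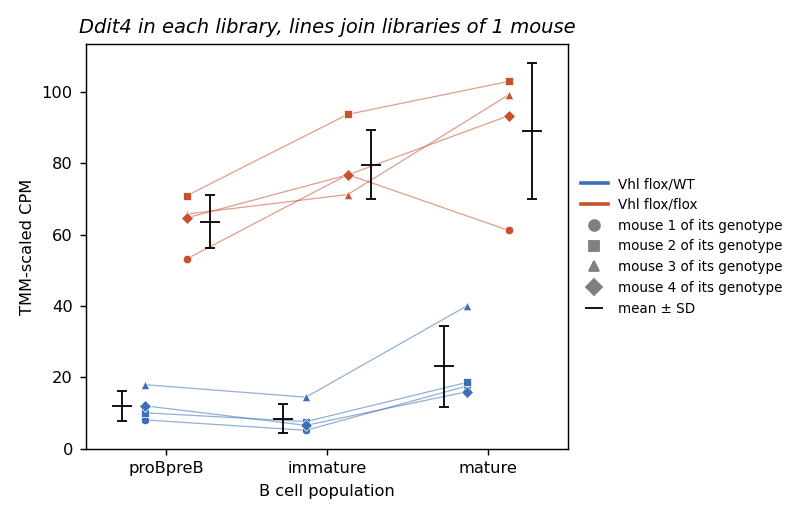
Ddit4 in TMM-scaled CPM in each of the 24 libraries, with lines joining the 3 libraries of a mouse and black bars for mean ± SD of 4 mice. The flox/flox libraries lie between 53.2 and 103.0 CPM, the flox/WT libraries between 5.18 and 40.1 CPM, and mouse 3 is the highest flox/WT library in each population.

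The order of the stages for Ddit4 was not the same in the 2 genotypes. In flox/WT mice its order was mature, proBpreB, immature, with means of 23.1 ± 11.4, 12.0 ± 4.26 and 8.46 ± 4.13 CPM, a 2.73-fold span. In flox/flox mice the order was mature, immature, proBpreB, with means of 89.2 ± 19.1, 79.7 ± 9.75 and 63.7 ± 7.48 CPM, a 1.40-fold span. From immature to mature cells Ddit4 rose in flox/WT mice by 1.41 on the log2 scale (SE 0.30, adjusted p = 0.000762), and in the same mouse the mature level was 2.43 to 3.40 times the immature level in 4 of 4 mice. The same step in flox/flox mice gave 0.16 (SE 0.27, adjusted p = 0.701), with ratios of 0.80 to 1.39 within mice. Mature flox/WT cells were also above proBpreB cells by 0.93 (SE 0.29, adjusted p = 0.00832), a call that was lost without the mature library of flox/WT mouse 3 (0.53, adjusted p = 0.0796).

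From proBpreB to immature cells the Ddit4 level moved down in each flox/WT mouse and up in each flox/flox mouse. Within a mouse the immature level was 0.55 to 0.81 times the proBpreB level in all 4 flox/WT mice, and 1.08 to 1.44 times that level in all 4 flox/flox mice. Without the mouse as a block neither step passed, at -0.48 (SE 0.31, adjusted p = 0.200) and 0.32 (SE 0.27, adjusted p = 0.316). With the mouse as a fixed block in edgeR both passed, at -0.55 (adjusted p = 0.00430) and 0.33 (adjusted p = 0.0307), but by limma-voom with a random mouse block neither did, at -0.50 (adjusted p = 0.187) and 0.32 (adjusted p = 0.123). The flox/WT step also passed without the immature library of mouse 3 (adjusted p = 0.0174) or all libraries of that mouse (0.0154), and the flox/flox step with those 2 groups fitted alone (0.0335). Mature against proBpreB flox/flox cells, at an adjusted p of 0.120 without the block, passed with both forms of the block, at 0.47 (adjusted p = 0.00265) and 0.46 (adjusted p = 0.0224). The difference between the genotype effects was 0.80 (adjusted p = 0.235) for immature minus proBpreB cells and -1.25 (adjusted p = 0.0585) for mature minus immature cells. With the fixed block these were 0.88 (adjusted p = 0.00467) and -1.30 (adjusted p = 8.66e-05), and with the random block 0.82 (adjusted p = 0.145) and -1.23 (adjusted p = 0.0241). The first thus passed with only 1 of the 2 forms of the block, and in 3 of 24 alternatives in all, and the second in 7 of 24. The random block used a single correlation of 0.0872 between libraries of a mouse for all genes. Most of the 24 alternatives had no mouse block and so did not use the pairing of the stages. The fall of Vhl itself also differed without the block, by -1.34 for immature minus proBpreB cells (SE 0.33, adjusted p = 0.00838). For mature minus immature cells Vhl gave 0.72 (SE 0.34, adjusted p = 0.225). The part of the unequal Vhl loss in the Ddit4 differences was not tested.

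Flox/WT mouse 3 had the highest Ddit4 of its genotype in each population, 0.83, 1.15 and 1.20 above the mean of the other 3 mice on the log2 scale. Sesn1 was the other of the 9 genes with its highest flox/WT value in mouse 3 in all 3 populations, as were 2.23% of all genes. Of 6 glucocorticoid targets 1 did the same, Tsc22d3, which encodes the glucocorticoid-induced leucine zipper protein, with 283, 613 and 1409 CPM against highest values of 197, 344 and 847 in the other mice. Of 16 immediate early and heat shock genes 1 did so, Nr4a1. Others of these lists went the other way. Jun, Hspa1a and Hspa1b had their lowest flox/WT value in mouse 3 in all 3 populations. Among the glucocorticoid targets, Sgk1 was lowest in mouse 3 in immature and mature cells, and Klf9 in proBpreB and mature cells. The part of these in the Ddit4 values was not tested, and without the 3 libraries of this mouse the log2 change of Ddit4 was 2.66, 3.62 and 2.36.

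Sesn1 was the main sestrin, and it climbed with maturation in both genotypes. It lies at chr10:41809935-41908424 on the plus strand. Summed per kilobase of exon, Sesn1 made up 88.1 to 92.3% of the sestrin level in the group means, Sesn2 5.54 to 9.30% and Sesn3 1.85 to 3.13%. In flox/WT mice Sesn1 held 108, 103, 117 and 104 CPM in proBpreB cells, 133, 127, 134 and 120 CPM in immature cells and 217, 188, 285 and 270 CPM in mature cells. The flox/flox mice had 107, 92.0, 88.8 and 88.8 CPM, then 123, 131, 119 and 140 CPM, then 205, 170, 161 and 193 CPM. In all 8 mice Sesn1 was lowest in proBpreB cells and highest in mature cells.

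The rise of Sesn1 from immature to mature cells was 0.90 (SE 0.12, adjusted p = 4.03e-07) in flox/WT and 0.51 (SE 0.12, adjusted p = 0.00123) in flox/flox mice on the log2 scale. The difference between these rises was -0.39 (SE 0.16, adjusted p = 0.158) and did not pass, though it did without the mature library of flox/WT mouse 2 (-0.49, adjusted p = 0.0477). From proBpreB to immature cells Sesn1 rose in flox/flox mice by 0.45 (SE 0.12, adjusted p = 0.00176) and gave 0.25 (SE 0.11, adjusted p = 0.0753) in flox/WT mice. Mature flox/flox cells held 76.1% of the flox/WT level, 182 ± 20.2 against 239.7 ± 45.2 CPM, with a change of -0.40 on the log2 scale (SE 0.11, adjusted p = 0.0164), although the groups overlapped. This call was lost without mature flox/WT mouse 3 (adjusted p = 0.0942) or 4 (0.0707), without mature flox/flox mouse 3 (0.0638), without all libraries of flox/WT mouse 3 (0.0973) and when the 2 groups were fitted alone (0.0795). In proBpreB and immature cells the change was -0.20 and -0.0041, with adjusted p of 0.363 and 0.987.

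Markers of the sorted cells and of other cells moved with the mature genotype comparison. Of all genes, 9.69% were higher and 6.62% lower in that comparison. The 8 mature B cell markers summed to 17549 to 19301 CPM in flox/WT and 13425 to 15448 CPM in flox/flox mature libraries, with 1 of 8 lower and 0 higher, and the 6 B lineage genes to 8209 to 9040 and 6254 to 6866 CPM, with 3 of 6 lower. The 8 NK cell genes summed to 33.6 to 44.4 CPM in flox/WT and 62.3 to 78.6 CPM in flox/flox libraries, with 3 of 8 higher, and 3 of 11 erythroid genes were higher, with sums of 177 to 433 and 336 to 728 CPM. Lists of other cells did not all move up. The 10 stroma and endothelium genes summed to 223 to 271 CPM in flox/WT mature libraries and fell to 164 to 199 CPM without Vhl. The 9 plasmacytoid dendritic cell genes fell from 3313 to 3928 CPM down to 2853 to 3295 CPM. Some of these 9, such as Irf8 and Spib, are expressed in B cells too, so this sum does not measure dendritic cells alone. The numbers called are not given for the stroma and plasmacytoid lists. No marker of the lists named in this paragraph was at 0 in either mature group. The part of these in the mature results for Sesn1, Sesn3 and Ddit4 was not tested.

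**Figure D3:**
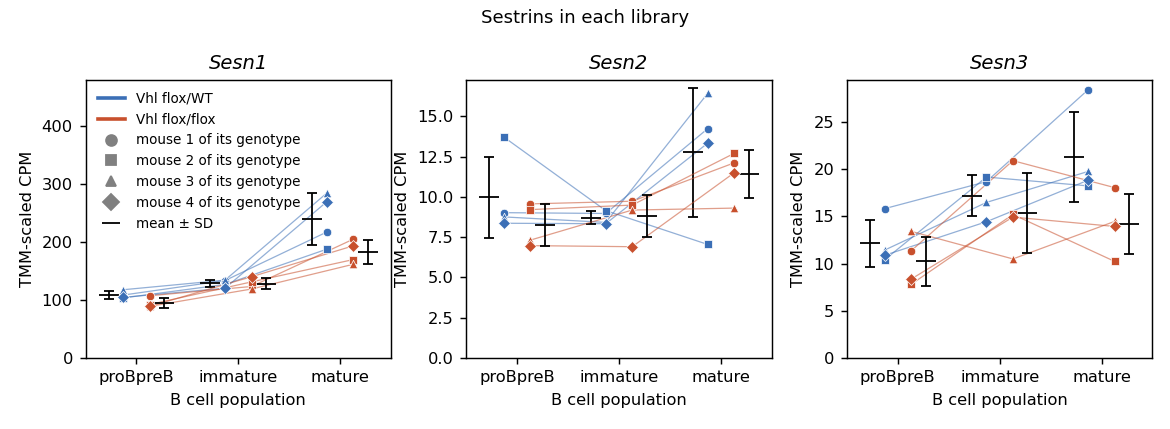
Sesn1, Sesn2 and Sesn3 in TMM-scaled CPM in each library, with lines joining the libraries of a mouse, black bars for mean ± SD of 4 mice and a separate axis for each gene. Sesn1 rises to mature cells in each of the 8 mice, while the Sesn2 libraries of the genotypes are mixed in every population.

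Sesn2, a leucine-binding sestrin, passed no genotype test, and no stage test in the fit of all 24 libraries. It lies at chr4:132492032-132510501 on the minus strand. Its group means lay between 8.26 and 12.8 CPM, and its log2 change in flox/flox cells was -0.27 (SE 0.22) in proBpreB, 0.02 (SE 0.22) in immature and -0.16 (SE 0.22) in mature cells. The 95% intervals ran from -0.72 to 0.17, from -0.44 to 0.48 and from -0.61 to 0.28. In flox/WT mice its highest value among proBpreB libraries was 13.7 CPM and its lowest among mature libraries 7.04 CPM, and both were mouse 2. From immature to mature flox/WT cells Sesn2 gave 0.55 (SE 0.22, adjusted p = 0.0532), which passed by DESeq2 (adjusted p = 0.0450), with the strict filter (0.0439) and without the mature library of mouse 2 (0.75, adjusted p = 0.00501). From proBpreB to mature cells it gave 0.35 (adjusted p = 0.160) in flox/WT mice, which passed without the proBpreB (0.0401) or the mature library (0.0194) of mouse 2. The same step in flox/flox mice gave 0.46 (adjusted p = 0.0691) and passed with those groups alone (0.0485) or without the mature library of mouse 3 (0.0458).

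Sesn3, a sestrin known as a FoxO target, was at a similar count level to Sesn2 but with a longer annotated exon length. It lies at chr9:14275067-14333101 on the plus strand. In mature cells the flox/WT libraries held 28.5, 18.2, 19.8 and 18.9 CPM and the flox/flox libraries 18.1, 10.2, 14.5 and 13.9 CPM. Every flox/flox library was below every flox/WT library, as for 7.26% of all genes, and the log2 change was -0.59 (SE 0.22, adjusted p = 0.0618), which passed by limma-voom (adjusted p = 0.0456) and without flox/flox mouse 1 (0.0379). The change was -0.25 (SE 0.22) in proBpreB and -0.16 (SE 0.22) in immature cells, with overlapping groups. Across stages Sesn3 rose from proBpreB to mature cells in flox/WT mice by 0.81 (SE 0.22, adjusted p = 0.00201), with a ratio of 1.73 to 1.80 within each of the 4 mice. In flox/flox mice the same step gave 0.47 (adjusted p = 0.0669) without a block, 0.46 (adjusted p = 0.0384) with the mouse as a fixed block and 0.48 (adjusted p = 0.0518) with it as a random block. It passed without proBpreB mouse 3 (0.0231) or mature mouse 2 (0.0257).

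Sesn3 was already higher in immature than in proBpreB flox/flox cells, by 0.59 (SE 0.22, adjusted p = 0.0254), a call that was lost without immature mouse 1 (adjusted p = 0.140) or proBpreB mouse 2 (0.0931) or 4 (0.0823). The same step in flox/WT mice gave 0.50 (adjusted p = 0.0560) without a block, and passed with the fixed block (0.52, adjusted p = 0.0223), the random block (0.51, adjusted p = 0.0296), those groups alone (0.0354) and without proBpreB mouse 1 (0.0207) or immature mouse 4 (0.0442).

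Deptor, which binds and inhibits the kinase in both mTOR complexes, was the lowest of the 9 genes in CPM. It lies at chr15:55112317-55259271 on the plus strand, and its libraries held 6 to 68 reads. In flox/WT mice the values were 2.30, 2.54, 3.50 and 2.52 CPM in proBpreB, 3.41, 2.03, 3.53 and 1.30 CPM in immature and 1.09, 3.02, 0.75 and 1.71 CPM in mature cells. The flox/flox libraries held 6.37, 4.07, 3.52 and 4.49 CPM, then 4.00, 5.30, 6.68 and 4.89 CPM, then 5.50, 1.83, 2.54 and 1.59 CPM. The flox/flox libraries lay above all flox/WT libraries in proBpreB and immature cells, by a narrow margin in each, and the groups overlapped in mature cells.

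The log2 change of Deptor was 0.76 (SE 0.39, adjusted p = 0.295), 1.02 (SE 0.40, adjusted p = 0.0669) and 0.80 (SE 0.42, adjusted p = 0.205) in proBpreB, immature and mature cells, and none passed. In immature cells it passed in 3 of 15 alternatives, when the 2 groups were fitted alone (adjusted p = 0.0492), by limma-voom (1.11, adjusted p = 0.0337) and without the libraries of flox/WT mouse 3 (1.23, adjusted p = 0.0473). In mature cells the change rested on single libraries, at 0.28 (adjusted p = 0.732) without flox/flox mouse 1 and 1.24 (adjusted p = 0.0615) without flox/WT mouse 2. The gene overlaps Gm9920 on the opposite strand, which had 0 to 16 reads in a library, up to 41.0% of the Deptor count. Without stranded counts, reads of the overlap cannot be told apart. No stage step of Deptor passed in the fit of all 24 libraries. In flox/flox mice mature against immature cells gave -0.86 (adjusted p = 0.109) and mature against proBpreB cells -0.68 (adjusted p = 0.135). Both passed by limma-voom (adjusted p of 0.0355 and 0.0465) and without the mature library of mouse 1 (-1.39, adjusted p = 0.0128, and -1.21, adjusted p = 0.0131). Mature against proBpreB flox/WT cells gave -0.72 (adjusted p = 0.141) and passed without the mature library of mouse 2 (-1.16, adjusted p = 0.0279).

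Tsc1, the stabilising partner of Tsc2, showed no difference that passed in any of the 12 comparisons, although immature against proBpreB flox/flox cells, at -0.49 (adjusted p = 0.150), passed with those groups alone (-0.52, adjusted p = 0.0348). It lies at chr2:28641228-28691167 on the plus strand. Its group means lay between 23.1 and 33.0 CPM, and its libraries spread widely within a group, from 12.8 to 33.2 CPM in immature flox/WT and from 11.6 to 37.2 CPM in mature flox/flox cells. The 95% interval of its genotype change was -0.47 to 0.69 in proBpreB, -0.59 to 0.61 in immature and -0.91 to 0.27 in mature cells.

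Tsc2, the part of the complex that turns off Rheb, lies at chr17:24595816-24632630 on the minus strand. In immature cells the flox/WT libraries held 88.0, 113, 111 and 101 CPM and the flox/flox libraries 78.6, 78.1, 93.5 and 81.7 CPM. The flox/flox level was 80.4% of the flox/WT level, and the change was -0.31 on the log2 scale (SE 0.11, adjusted p = 0.0359), and 1 flox/flox library lay inside the flox/WT range. The call was lost when the 2 groups were fitted alone (adjusted p = 0.0559), without all libraries of flox/WT mouse 3 (adjusted p = 0.0936) and without any one of 6 of the 8 libraries (adjusted p of 0.0599 to 0.107). It held without the immature library of flox/WT mouse 1 or of flox/flox mouse 3. In proBpreB and mature cells the change was 0.06 and -0.10, with adjusted p of 0.821 and 0.576. Tsc2 overlaps Pkd1, whose counts were 23.5 to 75.4% of those of Tsc2, and reads of the shared part cannot be told apart.

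Across stages Tsc2 was lowest in proBpreB cells in both genotypes. In flox/WT mice it was higher in immature cells by 0.56 (SE 0.11, adjusted p = 8.13e-05) and in mature cells by 0.42 (SE 0.11, adjusted p = 0.00152). In flox/flox mice mature cells were above proBpreB cells by 0.26 (SE 0.11, adjusted p = 0.0425), which did not hold with the mouse as a fixed block (0.25, adjusted p = 0.0591) or without the proBpreB library of mouse 1 or 3 or the mature library of mouse 1, 3 or 4 (adjusted p of 0.0535 to 0.114). Nor did it hold with RLE size factors, without a filter or by DESeq2 (adjusted p of 0.0580 to 0.0644). The step to immature cells gave 0.18 (adjusted p = 0.149).

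Mtor was lower without Vhl in proBpreB cells, where it was most abundant. It lies at chr4:148448611-148557683 on the plus strand and overlaps Angptl7, whose counts were at most 9.01% of those of Mtor. The proBpreB flox/WT libraries held 152, 171, 114 and 162 CPM and the flox/flox libraries 72.7, 80.6, 87.1 and 87.6 CPM. Every flox/flox library was below every flox/WT library, as for 7.6% of all genes, and the mean was 82.0 ± 6.94 against 149.8 ± 25.4 CPM. The log2 change was -0.87 (SE 0.16, adjusted p = 0.000346), which kept its side of the threshold without each single library, and Mtor ranked 243 of the 12850 genes from the largest decrease.

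In immature cells Mtor held 43.9, 49.7, 59.6 and 63.6 CPM in flox/WT and 27.3, 41.9, 52.7 and 39.5 CPM in flox/flox libraries, with a change of -0.43 (SE 0.16, adjusted p = 0.0587), which passed without flox/WT mouse 1 (adjusted p = 0.0269) or flox/flox mouse 3 (0.0128). In mature cells the change was -0.21 (SE 0.16, adjusted p = 0.413). The groups overlapped in both of these populations. The difference between the genotype effects in mature and proBpreB cells was 0.66 (SE 0.22, adjusted p = 0.120), and 0.77 (adjusted p = 0.0497) without the proBpreB library of flox/WT mouse 3, so the fall is not shown to be particular to proBpreB cells. The pro-B and pre-B markers of proBpreB libraries summed to a median of 3191 CPM in control and 3293 CPM in flox/flox libraries with 0 of 9 called. Of 6 B lineage genes 3 were lower, beside 2.75% of all genes, and the sum of the 6 was 4052 against 2669 CPM. The NK cell list summed to 169 against 253 CPM there with 0 of 8 called. The part of these in the Mtor result was not tested.

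Rptor passed no genotype test. It lies at chr11:119602905-119899576 on the plus strand. The proBpreB libraries held 117, 117, 127 and 111 CPM in flox/WT against 126, 133, 116 and 134 CPM in flox/flox mice, with overlapping groups and a log2 change of 0.11 (SE 0.13, 95% interval -0.15 to 0.37). In immature cells the change was 0.24 (SE 0.13, adjusted p = 0.209) and in mature cells -0.16 (SE 0.13, adjusted p = 0.455). Without the immature library of flox/flox mouse 1 the immature change passed (0.38, adjusted p = 0.0306).

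The ratio of the kinase to its scaffold was lower in flox/flox libraries of the earlier populations. Per kilobase of exon, Mtor over Rptor in the same library was 1.71 ± 0.36 in flox/WT and 0.86 ± 0.10 in flox/flox proBpreB cells. It was 1.84 ± 0.31 and 1.15 ± 0.15 in immature cells, and 1.37 ± 0.15 and 1.35 ± 0.24 in mature cells. The flox/WT and flox/flox libraries did not overlap in proBpreB and immature cells, and they were mixed in mature cells. These ratios are a description and were not tested.

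**Figure D4:**
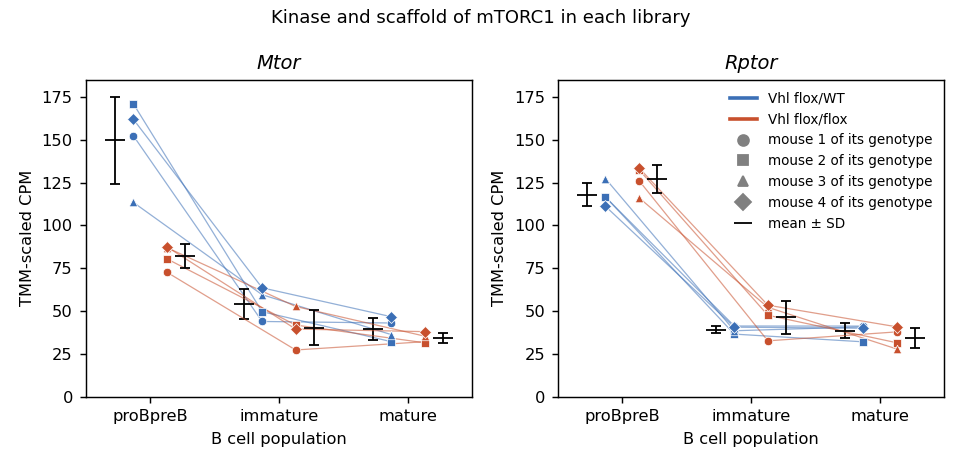
Mtor and Rptor in TMM-scaled CPM in each library, on the same axis range, with lines joining the libraries of a mouse and black bars for mean ± SD of 4 mice. Both genes are highest in proBpreB cells in all 8 mice, and the genotypes separate for Mtor, at 149.8 against 82.0 CPM, and not for Rptor, at 118 against 127 CPM.

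Both genes dropped sharply when cells left the proBpreB stage. From proBpreB to immature cells Mtor fell by 1.46 (SE 0.16, adjusted p = 1.10e-08) in flox/WT and by 1.02 (SE 0.16, adjusted p = 4.36e-06) in flox/flox mice on the log2 scale. Rptor fell by 1.59 (SE 0.13, adjusted p = 6.43e-11) and by 1.45 (SE 0.13, adjusted p = 2.69e-10). Mature cells held less than proBpreB cells in 8 of 8 mice for each gene, and the highest group mean was 3.78-fold the lowest for Mtor and 3.06-fold for Rptor in flox/WT mice, 2.39-fold and 3.68-fold in flox/flox mice.

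From immature to mature cells Mtor fell further in flox/WT mice by 0.45 (SE 0.16, adjusted p = 0.0297), a call lost without immature mouse 3 or 4 or mature mouse 2 or 3 (adjusted p of 0.0807 to 0.110) and without all libraries of mouse 3 (0.133). Rptor fell at this step in flox/flox mice by 0.43 (SE 0.13, adjusted p = 0.0168), lost without immature mouse 3 or 4 or mature mouse 3 (adjusted p of 0.0625 to 0.0726) and when those 2 groups were fitted alone, and gave -0.03 (adjusted p = 0.901) in flox/WT mice. Reads of Rptor cannot be told apart from those of the antisense Rptoros, which had 5 to 34 reads, 0.89 to 7.89% of the Rptor count.

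Each stage comparison called 2 to 6 of the 9 genes, and each genotype comparison called 2. In flox/WT mice 3 were called from proBpreB to immature, 3 from immature to mature and 6 from proBpreB to mature cells, beside 49.4%, 32.7% and 58.8% of all genes. The numbers in flox/flox mice were 4, 2 and 4, beside 55.9%, 26.5% and 59.1%. These counts are near those backgrounds.

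Per kilobase of exon, Ddit4 was well below Sesn1 in control cells and above or beside it without Vhl. In CPM the flox/flox means of Ddit4 stayed below those of Sesn1, at 63.7 against 94.1, 79.7 against 128 and 89.2 against 182. The place of Ddit4 relative to Sesn1 thus depends on the exon lengths used. The ratio of Ddit4 to Sesn1 was 0.25 ± 0.07, 0.15 ± 0.07 and 0.22 ± 0.08 in flox/WT proBpreB, immature and mature cells. In flox/flox cells it was 1.55 ± 0.29, 1.41 ± 0.16 and 1.14 ± 0.34. The mature flox/flox library of mouse 1, at 0.68, was the only flox/flox library under 1, and the highest flox/WT ratio was 0.35.

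The rest of the pathway was described from lists of its parts. Of all genes tested, 3.38% were higher and 2.75% lower in proBpreB, 10.2% and 10.5% in immature, and 9.69% and 6.62% in mature cells. The counts of each list stand beside these shares, and no set test was run. Of 8 other mTOR complex subunits, 0 were called in proBpreB cells. In immature cells 2 were higher, Prr5 (134 ± 17.3 to 202 ± 20.6 CPM, adjusted p = 0.000456) and Rictor (73.9 ± 2.90 to 107 ± 10.9 CPM, adjusted p = 0.00421), both parts of mTORC2. In mature cells 1 was lower, Mlst8, which both complexes share, at 25.3 ± 3.03 against 34.7 ± 3.48 CPM (adjusted p = 0.0132). Of 3 measured genes of the Tsc partner and Rheb list, 0 were called in any population.

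Of 26 genes of amino acid sensing at the lysosome, 2 were higher and 2 lower in proBpreB, 2 higher in immature, and 3 higher and 3 lower in mature cells. The median change of this list was -0.02, -0.03 and -0.10 on the log2 scale, beside 0.01 or less in size for all genes. Rragd, a Rag GTPase that recruits mTORC1 to the lysosome, rose in each population, from 10.4 ± 3.84 to 30.9 ± 8.38 CPM in proBpreB (log2 change 1.57), from 3.65 ± 0.93 to 15.5 ± 2.63 CPM in immature (2.06) and from 1.53 ± 1.24 to 10.8 ± 2.80 CPM in mature cells (2.82). Seh1l, a subunit of GATOR2, which sestrins bind, was also higher in each, by 0.51, 0.47 and 0.52. Nprl2 and Nprl3, subunits of GATOR1, which inhibits the Rag GTPases, fell in mature cells by 0.41 (adjusted p = 0.0146) and 0.56 (adjusted p = 0.0230). In proBpreB cells Lamtor5 of Ragulator and Sec13 fell by 0.49 and 0.40. Sec13 is, like Seh1l, a subunit of GATOR2, so subunits of that complex moved in opposite directions there.

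**Figure D5:**
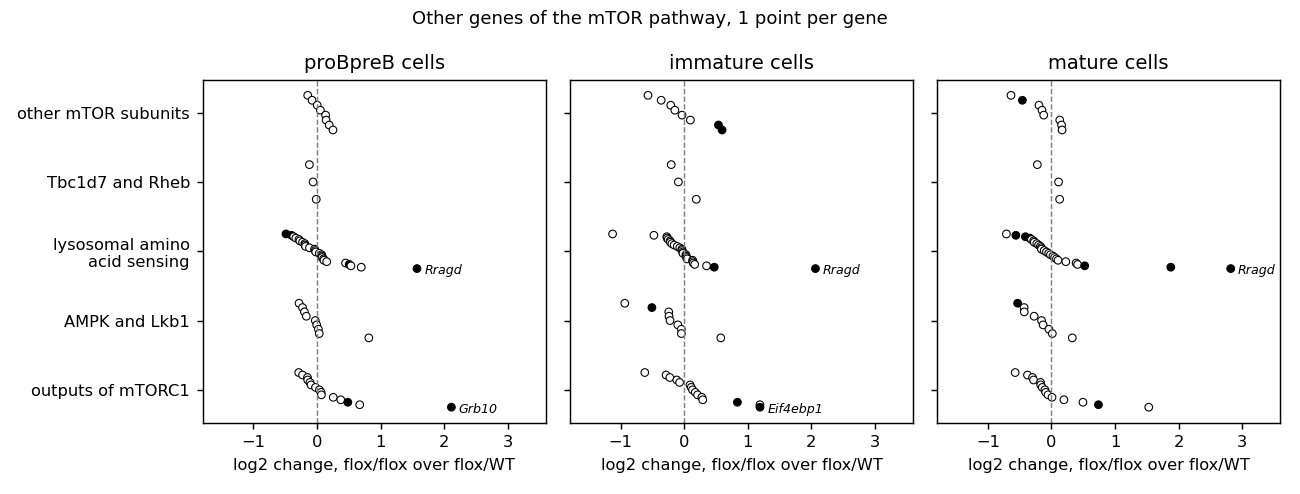
Log2 change in flox/flox over flox/WT cells of the other genes of the pathway, 1 point per gene in 5 lists and 1 panel per population, filled where the adjusted p is under 0.05. Most points lie near 0, and Rragd stands at 1.57, 2.06 and 2.82.

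Of 9 genes of AMPK and Lkb1, 1 was lower in immature and 1 in mature cells, in each case Strada, the pseudokinase that activates Lkb1, at 27.2 ± 1.19 against 38.7 ± 5.11 and 37.4 ± 2.53 against 54.0 ± 2.80 CPM. Beside this, 10.5% and 6.62% of all genes were lower in immature and mature cells, so this count is near the background. Of 15 genes that mTORC1 acts on, proBpreB and immature cells each had 2 that were higher and mature cells 1, and 0 were lower. Of all genes, 3.38%, 10.2% and 9.69% were higher in the 3 populations, so the counts in immature and mature cells are near the background. Eif4ebp1, the repressor of cap-dependent translation that mTORC1 phosphorylates, was higher in all 3 populations, by 0.48, 1.19 and 0.74. In immature cells it went from 51.6 ± 8.59 to 118 ± 8.87 CPM (adjusted p = 1.44e-08). Grb10, an adaptor that dampens insulin signalling, rose in proBpreB cells from 0.59 ± 0.34 to 2.59 ± 0.34 CPM (adjusted p = 0.0200). The level of Grb10 was low, so this change rests on few reads. Lpin1 rose in immature cells from 10.4 ± 3.69 to 18.8 ± 1.43 CPM.

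Pik3ip1, an inhibitor of PI3 kinase, rose in immature cells from 40.7 ± 4.36 to 71.7 ± 5.03 CPM (SD, 4 mice each). The log2 change was 0.81 (SE 0.14, adjusted p = 4.45e-05). It belongs to the list of FoxO targets described below and passed between genotypes in no other population. Of all genes, 10.2% were higher and 10.5% lower in immature cells. In these cells the pro-B and pre-B markers summed to a median of 607 CPM in flox/WT against 1193 CPM in flox/flox libraries, with 4 of 9 higher and 1 lower, and 12 of 12 proliferation genes were lower. The part of these in the immature results was not tested.

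The genes whose levels over the 24 libraries were most like each member were named from the correlation of log2 CPM. Pearson's r with Ddit4 was 0.96 for Clybl, 0.94 for Pdk1, the kinase that inhibits pyruvate dehydrogenase, and 0.94 for Bnip3, a mitophagy receptor. With Mtor it was 0.95 for Rhno1 and 0.94 for Rag1, the recombinase of antigen receptor genes, and Mrpl49. With Rptor it was 0.97 for Stambpl1, Klra14-ps and Gpam. With Sesn1 it was 0.95 for Snx8, 0.94 for Pfkfb4 and 0.94 for Tmem110. Sesn2 reached at most 0.73 and Deptor 0.79. The libraries share genotypes, stages and mice, so these values are a description.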

How the data were processed

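The authors deposited raw counts per gene symbol for 24 libraries, and every value here comes from those counts; a second, normalised table was not used. RNA came from cells sorted into lysis buffer and libraries from a SMARTer low-input kit, per the labels' protocols. In the submitters' processing notes stand HISAT2, featureCounts, Trim Galore, FastQC, CASAVA and DESeq2, and the build mm10. Tool versions, annotation and use of strand were not given in the sources used here.

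One edgeR 4.0.16 fit (R 4.3.3) of all 24 libraries gave every test: robust quasi-likelihood, TMM factors, low counts removed by filterByExpr over 6 groups, 18 residual degrees of freedom. Benjamini-Hochberg adjustment ran over 12850 genes separately for 12 comparisons, of which 3 set genotypes against each other, 6 set stages, and 3 test whether a genotype effect changes with stage. CPM are TMM-scaled, and correlations used log2 CPM with a prior count of 2. Exon lengths and positions are from GENCODE (GRCm38) and promoters from RefSeq. An exon length is the union of all annotated exons of a gene and not the length of a transcript.

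As alternatives, RLE factors, no filter, a stricter filter (10 CPM or more in 4 libraries), a fit of the compared groups alone, DESeq2 1.42.0, limma-voom 3.58.1 with the mouse as a random block, a replicate block and leaving out each library were tried. Leaving out all 3 libraries of flox/WT mouse 3 was added after seeing the data. The fit was tested on simulated data.

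Libraries of a mouse come from the same animal, which pairs the stages. Their deviations from the group means correlated at -0.28 to 0.37, above 0.1 in 16 of 24 pairs. No 2 libraries of a group were alike within sampling noise (lowest chi-square per degree of freedom 5.82). The members and gene lists were chosen with earlier results of these data known. Of each list, up to 2 genes per direction with the smallest adjusted p in a genotype comparison were named, and for each member the 3 most alike genes could be named. A further list of pathway genes is not reported here.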

Additional observations from a re-analysis of the deposited data

Results flagged for a closer look

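In 4 of 54 groups of 4 libraries 1 library stood apart from the other 3, where chance alone gives about 1 in 20. Ddit4 in mature flox/WT cells was 40.1 CPM in mouse 3, against 18.6 CPM in the next library. Sesn2 in proBpreB flox/WT cells was 13.7 CPM in mouse 2, against 9.02 CPM in the next. Sesn3 in mature flox/WT cells was 28.5 CPM in mouse 1, against 19.8 CPM. Rptor in mature flox/WT cells was 32.1 CPM in mouse 2, below the next library at 40.0 CPM.

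The genotype effect on Ddit4 differed between populations by a direct test when the mouse was a fixed block in edgeR. The effect in immature cells was larger than that in proBpreB cells by 0.88 on the log2 scale (adjusted p = 0.00467), and the effect in mature cells differed from that in immature cells by -1.30 (adjusted p = 8.66e-05). By limma-voom with a random mouse block, the first difference did not pass (0.82, adjusted p = 0.145) and the second did (-1.23, adjusted p = 0.0241). Without a block neither passed by edgeR on all 24 libraries. The fall of Vhl was itself larger in immature than in proBpreB cells in that fit (-1.34, adjusted p = 0.00838), and its part in these differences was not tested.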

How the results depend on the processing

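Ddit4 stayed higher in flox/flox cells of all 3 populations, and Mtor lower in proBpreB cells, past the threshold under each of the 16 alternatives. With the compared groups alone, mature cells gave 1296 calls between genotypes, 1 of them a member, and flox/flox mature against immature cells 1 member. Without flox/WT mouse 3 the mature genotype comparison also called 1 member, and mature minus immature 661 genes. DESeq2 called 601 genes for mature minus proBpreB. With the replicate block, 5 members were called for immature against proBpreB flox/WT cells, and 1 for the difference immature minus proBpreB, Ddit4, as without flox/WT mouse 3. For mature minus immature 1 member was called by DESeq2, by limma-voom, with the replicate block and without that mouse. Genotypes share only a replicate number, whose deviations correlated at -0.30 to 0.54. With that number as a replicate block Mtor in immature cells (-0.43, adjusted p = 0.0478) and Sesn3 in mature cells (-0.59, adjusted p = 0.0224) passed. The block changed no other call of a member than those named here and beside the results.

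Leaving out 1 library gave 493 (without flox/WT mouse 4) to 889 genes called between genotypes in proBpreB cells, 1 to 3 members in immature cells, in mature cells and for mature against immature flox/flox cells, and 0 to 1 members for each of the 3 differences. Signs turned for small values that passed no test, and the cause was not tested. For the genotype change these were Tsc2 in proBpreB cells (-0.013 without mouse 3, leave-one-out -0.013 to 0.13), and in immature cells Sesn1 (0.015 with the strict filter, 0.017 without mouse 3, leave-one-out -0.049 to 0.031), Sesn2 (leave-one-out -0.031 to 0.12) and Tsc1 (-0.0050 without a filter, -0.0096 by limma-voom, leave-one-out -0.19 to 0.24). Among stage steps they were, in flox/WT mice, Tsc1 from proBpreB to mature cells (-0.018 with RLE, -0.0094 with the groups alone, -0.021 by DESeq2, -0.0065 with the replicate block, -0.0020 without mouse 3, leave-one-out -0.10 to 0.18), Deptor from proBpreB to immature (-0.29 to 0.15) and Rptor from immature to mature cells (-0.067 to 0.051). In flox/flox mice they were Sesn3 (-0.26 to 0.067) and Tsc1 (-0.17 to 0.32) from immature to mature cells. Among differences of the genotype effect they were Sesn3 (-0.098 to 0.24) and Tsc1 (0.17 without mouse 3, -0.30 to 0.13) for immature minus proBpreB, Deptor (-0.74 to 0.22) for mature minus immature, and Sesn2 (-0.090 to 0.25) and Deptor (-0.035 with the block, -0.33 without mouse 3, -0.49 to 0.48) for mature minus proBpreB. Depth limits Deptor most, at 6 to 68 reads per library.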

Other observations

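Genes of the other pathways known to act on Ddit4 or the sestrins were measured too. The counts of each list here stand beside the shares of all genes, and no set test was run. These shares were 3.38% higher and 2.75% lower in proBpreB, 10.2% and 10.5% in immature, and 9.69% and 6.62% in mature cells. Of 12 measured transcription factor genes, 0, 1 and 2 were higher in flox/flox proBpreB, immature and mature cells and 0 lower. Foxo1 rose in immature cells from 387 ± 13.2 to 596 ± 22.4 CPM (log2 change 0.62) and in mature cells by 0.41. Epas1, the gene of HIF-2 alpha, went from 0.27 ± 0.28 to 2.94 ± 1.34 CPM in mature cells (adjusted p = 0.00106). Its flox/WT level was near 0, with an SD as large as the mean, so the change rests on few reads. Of 10 measured ATF4 targets, 2 were higher in proBpreB, 2 higher and 4 lower in immature, and 3 higher and 1 lower in mature cells. The pseudokinase Trib3 rose by 1.98, 1.62 and 2.30, and Vegfa, which is also a HIF target, by 2.40, 5.53 and 5.48. The serine synthesis genes Phgdh and Psat1 fell in immature cells by 1.23 and 0.89.

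Of 13 FoxO targets, 2 were higher and 2 lower in proBpreB, 3 and 3 in immature, and 3 and 2 in mature cells. Ccng2, the gene of cyclin G2, was higher in each population, by 0.34, 1.18 and 1.09. Of 11 measured p53 targets, 0 were called in proBpreB cells, 1 was higher and 1 lower in immature cells, and 3 were higher and 2 lower in mature cells. The p53 target Bbc3 fell in immature cells by 0.88 and rose in mature cells by 1.49. Of 6 glucocorticoid targets, 0, 3 and 2 were higher and 0 lower, with Sgk1 at 56.2 ± 10.1 against 26.1 ± 3.02 CPM in immature cells. Of 16 immediate early and heat shock genes, 2 were lower in proBpreB, 1 was higher in immature, and 3 were higher and 3 lower in mature cells. Of 12 proliferation genes, 12 were lower in immature and 8 higher in mature cells, with a median log2 change of -1.62 and 0.77.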
